A study of Homo sapiens with 13 samples.

Results

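RNA sequencing was compared between 293T clones with all 3 FLCN copies edited (2 clones) and clones with 1 of 3 copies edited (7 clones), 9 of the 13 monoclonal lines of the study. The 9 clones were chosen by their genotype label at the coding variant rs199643834 and by no measured value. The 2 clones labelled ALT/ALT/ALT are called HOM 1 (clone 3_F5) and HOM 2 (clone 13_9), and the 7 clones labelled ALT/REF/REF are called HET 1 to HET 7. The other 4 clones, labelled REF/REF/REF and called WT 1 to WT 4, went through the same procedure and give the unedited level. Per the labels' protocols, 293T cells, an established human embryonic kidney line, received lentiCRISPR v2 plasmids that express Cas9 and the guide, and a single-stranded oligonucleotide as repair template. They were then held in 5 μg/ml puromycin for 8 hours and sorted as single cells. Every library is therefore 1 clone grown from 1 cell, so the spread within a group is the spread between clones, and no clone was sequenced again from a separate culture.

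FLCN encodes folliculin, a tumour suppressor lost in Birt-Hogg-Dubé syndrome, which is known for skin, lung and kidney lesions. Folliculin works in a complex with FNIP1 or FNIP2 at the lysosome, where it acts on the Rag GTPases that recruit mTORC1, the kinase that matches growth to amino acid supply. Through the Rag proteins it also keeps the transcription factors TFE3 and TFEB out of the nucleus, and these factors drive lysosomal genes of the CLEAR network (genes sharing a lysosomal promoter element) as well as GPNMB and RRAGD.

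Total counts per clone ran from 44504068 to 54377639, and 20320 genes had enough counts to be tested. The kidney development gene EYA1 stood at 11.0 to 34.9 CPM (counts scaled to the size of the library) in all 13 clones, while the blood marker PTPRC, the liver marker TTR and the endothelial marker CDH5 did not exceed 0.164 CPM. The fibroblast genes COL1A1 and COL3A1 were detected in every clone, at up to 29.5 and 13.0 CPM. HOM 1 stood apart from all 12 other clones in RNA composition: 4.33% of its counts came from mitochondrial genes and 0.0220% from small nucleolar RNA genes, against 1.76 to 3.54% and 0.00436 to 0.00894% in the HET clones. HOM 2, at 2.81% and 0.00674%, lay inside both ranges. Results below are therefore given for each HOM clone, and no value is called a genotype difference where HOM 1 alone carries it.

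FLCN itself did not separate the genotypes. It stood at 23.7 CPM in HOM 1 and 36.7 CPM in HOM 2, against a lowest value of 27.4, a median of 30.7 and a highest value of 64.0 CPM in the HET clones and a range of 26.1 to 50.5 CPM in WT. HOM 1 was thus below every HET clone and HOM 2 inside their range. The fitted log2 fold change of HOM against HET was -0.27 (SE 0.33), and an exact two-sided permutation test over the 36 possible splits of the 9 clones gave p = 0.611, where the smallest p possible is 0.0278. The 2 HOM clones pull in different directions: without HOM 1 the fitted value was 0.027 and without HOM 2 it was -0.63.

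Partners and downstream factors of folliculin gave no call for HOM against HET, which with 2 HOM clones does not show that their levels were equal. FNIP1 stood at 49.0 and 41.2 CPM in HOM 1 and HOM 2 with a HET median of 46.9, and FNIP2 at 49.9 and 49.2 CPM with a HET median of 49.2. TFEB stood at 2.28 and 3.35 CPM, inside the HET range of 1.66 to 4.14 CPM. TFE3, at 38.3 and 42.4 CPM, had HOM 1 just under the lowest of the HET clones (39.7 to 61.3 CPM) and HOM 2 inside them. MITF, the third expressed member of the family, was 12.4 and 12.7 CPM, inside 11.5 to 18.7 CPM. The TFE3 and TFEB targets RRAGD and GPNMB, a Rag GTPase and a lysosomal glycoprotein, had log2 fold changes of -0.25 (SE 0.21) and -0.16 (SE 0.64). None of these 7 genes passed in edgeR's quasi-likelihood test with Benjamini-Hochberg adjustment, each at an adjusted p of 1.00.

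**Figure D1:**
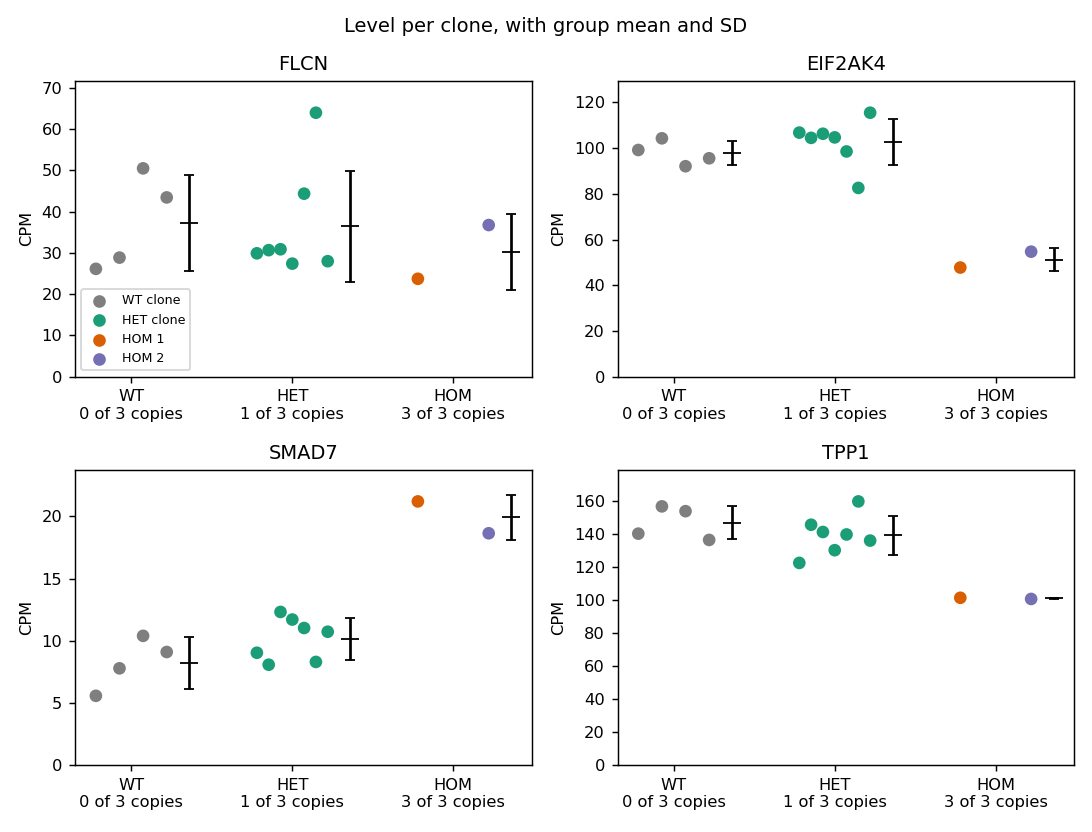
Level of FLCN, EIF2AK4, SMAD7 and TPP1 in CPM, 1 point per clone, for 4 WT, 7 HET and 2 HOM clones, with the group mean and SD as the black mark and bar. For EIF2AK4 the 2 HOM clones, at 47.8 and 54.7 CPM, lie under all other clones, whereas for FLCN the HOM clones straddle the lower HET values.

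Across all genes, 0 of 20320 passed an adjusted p of 0.05 for HOM against HET in edgeR (0%). At an unadjusted p under 0.05 there were 569 genes (2.8%), of which 388 were higher (1.91%) and 181 lower (0.891%) in HOM. DESeq2 called 15 genes, limma's voom 1. Genes whose 2 HOM values both lay outside all 7 HET values numbered 505 (2.49%), 247 above (1.22%) and 258 below (1.27%). With 2 clones in a group, 1 of which stands apart in composition, these counts are a list of candidates and not of calls.

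EIF2AK4 was the gene nearest to the threshold. It encodes GCN2, the kinase that senses uncharged transfer RNA during amino acid shortage and phosphorylates the translation factor eIF2 alpha. Its level was 47.8 CPM in HOM 1 and 54.7 CPM in HOM 2, against 82.6, 104.7 and 115.5 CPM as the lowest, median and highest HET values and 92.1 to 104.3 CPM in WT. Both HOM clones were under every one of the 11 other clones, at 0.456 and 0.523 of the HET median. The log2 fold change was -1.0 (SE 0.14), with an edgeR adjusted p of 0.0859 over all genes, so the gene did not pass in the fit used throughout. It ranged from -1.12 to -0.89 over 22 alternatives, with adjusted p from 2.86e-09 (DESeq2) to 1.0 (without HOM 1), and 8 of these brought it under 0.05. Those were DESeq2, voom, 1 surrogate variable, removal of chromosome medians, a mean CPM of at least 1, and leaving out HET 4, HET 6 or HOM 2. Taken alone, HOM 1 gave -1.10 (SE 0.20, edgeR adjusted p = 0.0546) and HOM 2 gave -0.91 (SE 0.20, edgeR adjusted p = 1.00).

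The genes beside EIF2AK4 on chromosome 15 did not share its level. GPR176, the tested gene before it, stood at 9.53 and 14.0 CPM in the HOM clones, inside the HET range of 8.47 to 18.7 CPM. SRP14, the gene after it, stood at 169 and 151 CPM, inside 149 to 180 CPM, and BUB1B, a mitotic checkpoint kinase, at 147 and 132 CPM, inside 104 to 169 CPM. Of the 5 tested genes on each side, none had both HOM clones outside the HET range.

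The other kinases and partners of the eIF2 pathway gave no such separation. Of 16 tested members, EIF2AK4 was the 1 at an unadjusted p under 0.05 (2.8% of all genes). EIF2AK2 (the double-stranded RNA sensor PKR) stood at 156 and 136 CPM against 147 to 208 CPM in HET. Of 39 tested ATF4 targets, the amino acid synthesis, transport and transfer RNA charging genes that act downstream of eIF2 phosphorylation, 4 had a fitted value above 0, against 45.1% of all tested genes, and the median was -0.31 against -0.03 over all genes. Their mean log2 CPM, 6.26 in HOM 1 and 6.19 in HOM 2, lay inside the HET range of 6.06 to 7.12, with a HET median of 6.67. Only SESN2, a stress sensor that restrains mTORC1, reached an unadjusted p under 0.05, at 59.3 and 95.9 CPM against 74.5 to 182 CPM in HET. The serine pathway enzyme SHMT2 had both HOM clones, at 199 and 222 CPM, just under the lowest HET clone at 225 CPM. It and NUPR1 were the 2 of 39 members with both HOM clones below all HET clones (1.27% of all genes). Below the HET range were 6 of the 39 in HOM 1 (12.9% of all genes) and 9 in HOM 2 (5.57% of all genes). PCK2, the mitochondrial phosphoenolpyruvate carboxykinase, which was not on this list, stood at 12.4 and 24.8 CPM against 27.7, 45.4 and 89.3 CPM, with a log2 fold change of -1.35 (SE 0.42) that did not pass (edgeR adjusted p = 1.00).

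Among genes averaging 1 CPM or more for which both HOM clones were above all HET clones, SMAD7 had the lowest p. It encodes the inhibitory SMAD that is induced by TGF-beta and blocks its receptor. HOM 1 had 21.2 CPM and HOM 2 had 18.7 CPM, above all HET clones (8.09, 10.7 and 12.3 CPM) and above WT (5.59 to 10.4 CPM). Its log2 fold change was 0.97 (SE 0.23), with an edgeR adjusted p of 1.00 over all genes. Other feedback genes of the TGF-beta and BMP pathway did not share this pattern: 16 of 32 tested members were above 0 and the list's median was -0.00. ID1, CYR61 and CTGF were high in HOM 1 only, at 4.54, 66.6 and 20.7 CPM, whereas HOM 2 had 1.21, 11.1 and 2.88 CPM, inside the HET ranges whose highest values were 1.71, 29.1 and 8.52 CPM.

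Among the listed lysosomal genes, only TPP1 separated the groups. TPP1, the tripeptidyl peptidase of the lysosome lumen, had 101.4 CPM in HOM 1 and 100.7 CPM in HOM 2, under the HET values of 122.5, 139.7 and 159.7 CPM and under WT at 136.4 to 156.7 CPM. Its log2 fold change of -0.46 (SE 0.13) did not pass (edgeR adjusted p = 1.00). Of 44 tested CLEAR genes, 4 were above 0 with a median of -0.13 against -0.03 over all genes, and TPP1 was the 1 of 44 with both HOM clones below all HET clones (1.27% of all genes). In HOM 1, 11 of the 44 were below the HET range (12.9% of all genes) and 2 above it, and in HOM 2, 2 were below (5.57% of all genes) and 0 above. LAMP1, a lysosome membrane glycoprotein, ran the other way in HOM 1 alone, at 120 CPM against 39.3 to 54.1 CPM in HET and 45.9 CPM in HOM 2. Of 21 tested MiT/TFE factors and targets, 6 were above 0 with a median of -0.10, and of 37 genes of the folliculin, Rag, Ragulator and mTORC1 machinery, 12 were above 0 with a median of -0.06. Neither list had a member with both HOM clones outside the HET range.

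Further genes separated the groups without passing the test. ZNF85, a KRAB zinc finger gene, stood at 0.452 and 0.904 CPM against 1.77, 8.16 and 17 CPM in HET and 8.87 to 18.6 CPM in WT. LOXL2, a collagen cross-linking oxidase, was at 6.17 and 7.13 CPM against 7.33, 13.9 and 21.2 CPM, so that HOM 2 lay close under the lowest HET clone. PTPN18, a protein tyrosine phosphatase, was at 25.0 CPM in both HOM clones against 29.4, 34.5 and 45.6 CPM. On the lower side WSB2, SUMF2, FKBP9P1, RAPH1, PPP2R3A and TMEM256 completed the 12 genes of lowest p, with log2 fold changes from -0.94 (FKBP9P1) to -0.52 (SUMF2).

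On the higher side, the receptor phosphatase PTPRZ1 stood at 4.23 and 1.97 CPM against 0.118, 0.821 and 1.32 CPM in HET. IL13RA2, a decoy receptor for interleukin-13, stood at 11.1 CPM in HOM 1 but 1.91 CPM in HOM 2, against at most 1.22 CPM in HET and 3.07 CPM in WT. EMILIN2, an extracellular matrix glycoprotein, was the gene of this set that was higher in HOM 2 (36.9 CPM) than in HOM 1 (18.4 CPM), with a HET range of 3.57 to 15.9 CPM. HNF4G, a nuclear receptor, was at 4.56 and 4.46 CPM against 2.18 to 2.88 CPM in HET, yet inside the WT range of 2.29 to 5.66 CPM. ADAT2, a transfer RNA adenosine deaminase subunit, was at 49.7 and 38.5 CPM against 22.7 to 35.1 CPM. For TTC14, AGAP9 and LINC00632, as for ADAT2, HOM 1 was farther from the HET clones than HOM 2. The neuronal growth cone gene GAP43 also had both HOM clones, at 2.06 and 1.68 CPM, above the highest HET clone at 1.05 CPM.

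**Figure D2:**
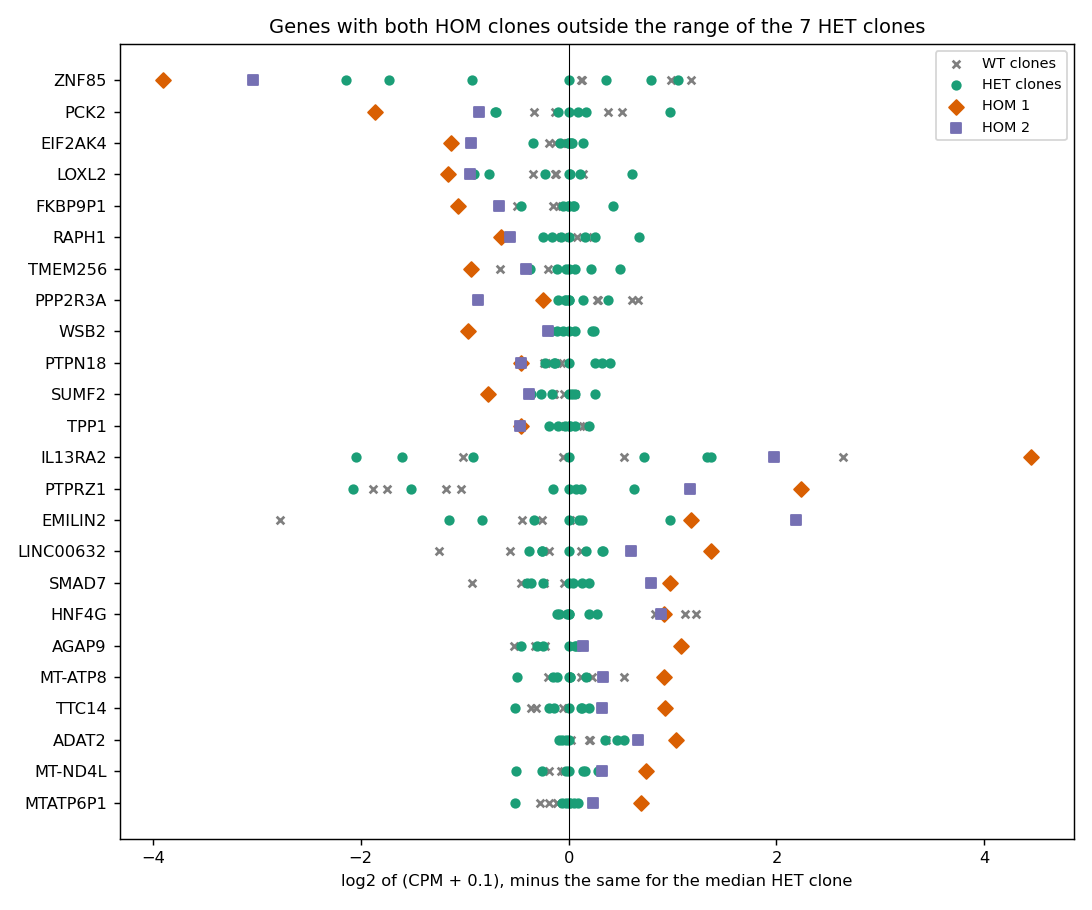
The 12 genes of lowest p on each side among those with both HOM clones outside the HET range, as log2 of CPM plus 0.1 relative to the median HET clone, with 1 symbol per clone. HOM 1 lies farther out than HOM 2 for most genes, EMILIN2, PPP2R3A and (narrowly) TPP1 being exceptions, and for HNF4G 3 of the 4 WT clones lie with the HOM clones.

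Messenger RNAs of the mitochondrial genome, which encode core subunits of the respiratory chain and ATP synthase, were above 0 for 13 of 13 genes, with a median of 0.49. Of these, 10 had an unadjusted p under 0.05 (1.91% of all genes were called higher at that level) and 0 passed after adjustment. The size came mostly from HOM 1, whose median was 0.73 with 13 of 13 above the HET range (13.5% of all genes), while HOM 2 had a median of 0.19 with 3 of 13 above it (4.7% of all genes). MT-ATP8, an ATP synthase subunit, stood at 93.9 and 62.3 CPM against 35.2, 49.6 and 55.9 CPM in HET, and WT reached 71.7 CPM. MT-ND4L, a complex I subunit, stood at 284 and 211 CPM against a highest HET value of 206 CPM. MTATP6P1, a nuclear copy of MT-ATP6, had 239 and 174 CPM against 103 to 157 CPM, and reads of MT-ATP6 and this copy cannot be told apart here. Nuclear genes of oxidative phosphorylation did not share this: 27 of 62 were above 0 and the median was -0.01.

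The remaining lists had 0 genes past the adjusted threshold. Over all tested genes, 45.1% had a fitted value above 0. Hypoxia and glycolysis genes were above 0 for 3 of 31 (median -0.16), with PDK1, the kinase that closes off pyruvate dehydrogenase, at 42.8 and 47.3 CPM against 54.0 to 109 CPM in HET. Cholesterol synthesis genes were above 0 for 2 of 26 (median -0.23), with the sterol carrier STARD4 at 65.5 and 80.9 CPM against 83.9 to 110 CPM. The p53 targets were above 0 for 3 of 27 (median -0.30), but the clones differed: the median was -0.61 in HOM 1 and 0.03 in HOM 2. In HOM 2, 11 of 35 G2/M genes were below the HET range (5.57% of all genes), and CDC25C, the phosphatase that starts mitosis, had both HOM clones, at 35.9 and 36.9 CPM, under the HET range of 39.98 to 54.9 CPM. Of 77 ribosomal protein genes 18 were above 0 (median -0.07), with 34 in HOM 1 and 8 in HOM 2 taken alone. Of 29 interferon-stimulated genes 5 were above 0 (median -0.40), most of these at low level, such as IFIT2 at 0.542 and 0.863 CPM. The hypoxia median was -0.31 in HOM 1 and -0.06 in HOM 2. Mean log2 CPM of both HOM clones lay inside the HET range for the hypoxia, cholesterol, p53, ribosomal and interferon lists. For G2/M genes HOM 2, at 7.23, lay under the HET range of 7.32 to 7.47.

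The 2 HOM clones lay at different distances from the HET clones. HOM 2 had 824 genes over 2-fold from the HET median, the lowest number among the 13 clones, and HOM 1 had 2533. Each HET clone, set against the median of the other 6, had 1237 to 3515 such genes, and the WT clones 1799 to 2995. HOM 1 lay outside the HET range for 5364 genes (26.4%) and HOM 2 for 2086 genes (10.3%), and the 2 clones lay on opposite sides of it for 319 (1.57%). The comparisons of HOM 1 and of HOM 2 with HET share the same 7 HET clones.

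**Figure D3:**
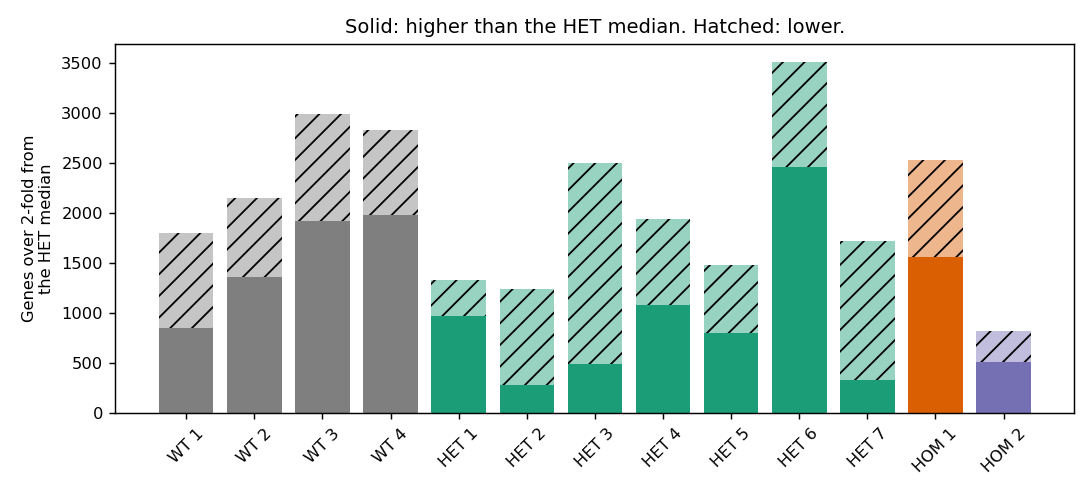
Number of genes more than 2-fold from the median HET clone, for each of 13 clones, with genes higher than that median as the solid part of a bar and genes lower as the hatched part. HOM 2 has the shortest bar (824 genes) and HOM 1 (2533 genes) lies among the taller HET clones.

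With each HOM clone fitted as a group of its own, 23 genes passed in HOM 1 against HET in edgeR (0.113%; 7.37% at an unadjusted p under 0.05), 22 higher (0.108%) and 1 lower (0.00492%), and 0 in HOM 2 against HET (0%), where 134 genes had an unadjusted p under 0.05 (0.659%). Between the 2 HOM clones 0 genes passed (0%) and 842 had an unadjusted p under 0.05 (4.14%). A call in HOM 1 is thus not shown to differ from HOM 2. In such a fit a single library is assumed to vary like the clones of the other groups.

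In HOM 2, the 5 genes of lowest p on the higher side with HOM 1 inside the HET range were SEMA3E, CARMIL2, TUBA4A, CCDC137 and FTSJ3. SEMA3E, a secreted guidance cue, stood at 14.6 CPM against 4.32 to 9.08 CPM in HET and 7.23 CPM in HOM 1, and TUBA4A, an alpha tubulin, at 16.7 CPM against 2.58 to 10.0 CPM. On the lower side were PIGT, RSF1, TMEM38B, CFDP1 and ZNF25. PIGT, a subunit of the GPI transamidase, stood at 48.5 CPM against 73.7 to 104 CPM in HET and 81.0 CPM in HOM 1, and CFDP1, a chromatin gene, at 47.6 CPM against 62.8 to 108 CPM. The log2 fold changes of these 10 genes in HOM 2 ran from -1.04 for ZNF25 to 1.40 for TUBA4A, and none passed (edgeR adjusted p = 1.00 for each).

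In HOM 1, 9 of the 23 genes that passed were small nucleolar RNAs (snoRNAs), short RNAs of the nucleolus that guide methylation (C/D box, SNORD) or pseudouridylation (H/ACA box, SNORA) of ribosomal RNA. They are cut from introns of host genes and carry no poly(A) tail, so a poly(A)-selected library holds few of their reads. Of the 9, 5 genes, SNORA4, SNORA63, SNORA81, SNORD2 and the H/ACA family member RF00092, lay in 1 host, EIF4A2, on chromosome 3. SNORA4 stood at 6.42 CPM in HOM 1 against 0.562, 0.705 and 0.917 CPM in HET and 0.596 CPM in HOM 2 (3.19 on the log2 scale, SE 0.33, edgeR adjusted p = 0.00102). SNORD2 stood at 9.85 CPM against 0.805 to 1.77 CPM in HET and 1.09 CPM in HOM 2 (3.02, SE 0.34, edgeR adjusted p = 0.00141). The host EIF4A2, a translation initiation helicase, was at 382 CPM in HOM 1, inside the HET range of 183 to 400 CPM.

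The other 4 were SNORD20, SNORD21, SNORD18B and SNORA27, in the hosts NCL, RPL5, RPL4 and RPL21. SNORD20 stood at 1.97 CPM in HOM 1 against 0.0806, 0.118 and 0.225 CPM in HET and 0.0821 CPM in HOM 2, and its host NCL, the nucleolin gene, was at 2158 CPM, inside 1108 to 2791 CPM. SNORD18B was above the HET range in HOM 2 as well, at 0.472 CPM against at most 0.410 CPM, with 1.99 CPM in HOM 1. The C/D box members among the 9 genes are printed to show what was counted, read from GENCODE release 29 genes on GRCh38, with the C box core and the D box in capitals. Their positions there are chr3:186784796-186784864 on the plus strand, chr2:231456444-231456523 on the minus strand, chr1:92837289-92837383 on the plus strand and chr15:66502020-66502091 on the minus strand.
SNORD2: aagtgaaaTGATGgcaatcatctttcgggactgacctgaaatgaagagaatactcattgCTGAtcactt
SNORD20: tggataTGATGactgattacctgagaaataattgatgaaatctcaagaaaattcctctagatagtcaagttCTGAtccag
SNORD21: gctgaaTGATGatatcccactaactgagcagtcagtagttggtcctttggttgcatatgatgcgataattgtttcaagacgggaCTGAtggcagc
SNORD18B: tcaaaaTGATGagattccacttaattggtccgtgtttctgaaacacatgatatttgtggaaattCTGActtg

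The pattern covered most of the tested members of the class and few of the host genes. Of 107 tested snoRNA genes, 95 were above the HET range in HOM 1 (13.5% of all genes) and 8 in HOM 2 (4.7% of all genes). The count filter asked for enough counts in only 2 clones, so the high level of HOM 1 itself could help a low snoRNA gene to be tested. The share of 95 of 107 may be raised by this choice of genes. C/D and H/ACA members took part alike, with 47 of 51 SNORD genes and 39 of 43 SNORA genes above the range. The summed level of the class was 204 CPM in HOM 1 and 62.8 CPM in HOM 2, against 41.7 to 73.1 CPM in HET and 43.8 to 63.1 CPM in WT. For the 101 snoRNA genes with a tested host the median log2 fold change in HOM 1 was 1.81, and over their 68 hosts it was 0.04. Of the 68 hosts, 9 were above the HET range in HOM 1 (13.5% of all genes), 59 inside it and 0 below (12.9% of all genes). Protein-coding hosts above the range included TAF1D, at 175 CPM against 72.9 to 97.8 CPM in HET. Of 19 non-coding host genes with an SNHG symbol, counted as a class of their own, 12 were above the range in HOM 1 (13.5% of all genes). In HOM 2, 5 of the 19 were above it (4.7% of all genes). SNHG1, another of the called genes, stood at 375 CPM in HOM 1 against 121 to 156 CPM in HET (1.46, SE 0.20). A snoRNA gene of the HET clones had a median of 0.315 CPM, so these are low counts, and 51 of the 101 overlap an annotated exon of their host, where reads of both are hard to separate. The mitochondrial ribosomal RNA MT-RNR1, which also has no long poly(A) tail, passed too, at 984 CPM in HOM 1 against 170 to 356 CPM in HET and 207 CPM in HOM 2. The WT clones had 432 to 534 CPM of MT-RNR1, above every HET clone. The share of counts from long intergenic RNA genes was also high in HOM 1, at 0.532% against 0.247 to 0.440% in HET and 0.389 to 0.482% in WT. The part of RNA quality or of poly(A) selection in these values was not tested.

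**Figure D4:**
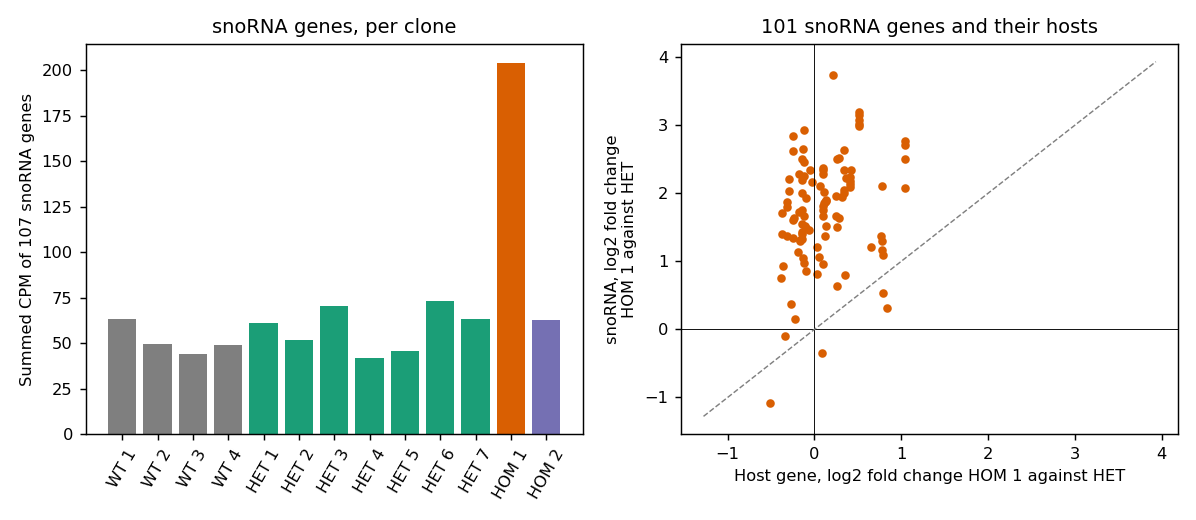
Left, summed CPM of 107 snoRNA genes in each clone, with HOM 1 at 204 CPM and the HET clones at 41.7 to 73.1 CPM. Right, log2 fold change of HOM 1 against HET for 101 snoRNA genes (vertical) and their host genes (horizontal), 1 point per snoRNA, with the dashed line marking equal change. Most points lie well above the line.

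Immediate early genes are switched on within minutes of a stimulus, and 2 of 29 tested passed in HOM 1 (0.113% of all genes). FOSB, an AP-1 subunit, stood at 46.8 CPM in HOM 1 against 1.92, 4.49 and 7.37 CPM in HET and 3.41 CPM in HOM 2 (log2 fold change 3.44, SE 0.44, edgeR adjusted p = 0.00415). IER2 passed as well, at 35.5 CPM against 11.2 to 17.3 CPM and 11.3 CPM in HOM 2. Of the 29 members, 8 were above the HET range in HOM 1 (13.5% of all genes) and 0 in HOM 2 (4.7% of all genes), and 17 had a fitted value above 0 in HOM 1, with a median of 0.17. DUSP1, a phosphatase of MAP kinases, stood at 47.4 CPM in HOM 1 and 21.8 CPM in HOM 2 against 15.3 to 27.8 CPM, without passing. FAM221A was the 1 gene that fell, from 4.23 to 15.5 CPM in HET and 12.4 CPM in HOM 2 to 0.158 CPM in HOM 1 (edgeR adjusted p = 0.0151). AMOT, the angiomotin that scaffolds Hippo signalling, did not pass, at 139 CPM in HOM 1 against 731 to 2929 CPM (edgeR adjusted p = 0.0927). The other calls were the mitochondrial transfer RNA gene MT-TE, RF00019, AC112907.3 and AC007952.4, all higher.

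Another 5 of the 23 genes, ARGLU1, ANKRD10, CDC16, TEX30 and KDELC1, came from the end of chromosome 13. ARGLU1, a splicing cofactor, stood at 79.1 CPM in HOM 1 against 25.1, 27.8 and 28.7 CPM in HET and 25.5 CPM in HOM 2 (log2 fold change 1.55, SE 0.16, edgeR adjusted p = 0.00102). ANKRD10 stood at 38.5 CPM against 9.44 to 14.1 CPM, and CDC16, a subunit of the anaphase-promoting complex, at 71.7 CPM against 28.4 to 34.1 CPM. These genes lie in a stretch of 33 expressed protein-coding genes from FARP1 to CHAMP1 whose median in HOM 1 was 1.08 above the HET median on the log2 scale, against -0.08 to 0.04 in the HET clones and 0.05 in HOM 2. LAMP1, high in HOM 1 only, is on this arm as well. A stretch was counted where the running median of 41 genes lay beyond 0.3 for at least 15 genes, a rule chosen after the values were seen.

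The stretch nearest to the edited gene was on chromosome 17. From the tip of the short arm through FLCN, 135 expressed protein-coding genes had a median of -0.69 in HOM 1, against -0.12 to 0.30 in the HET clones and -0.04 in HOM 2. Of the 135 genes, 107 were below the HET range in HOM 1 (12.9% of all genes) and 5 in HOM 2 (5.57% of all genes). The level changed close to FLCN: the 20 genes before it, MAP2K4 to PLD6, had a median of -0.61 in HOM 1 with 15 below the HET range, and the 20 genes after it, COPS3 to PRPSAP2, a median of 0.03 with 2 below. Among single neighbours, NCOR1, a nuclear co-repressor, was at -0.64, the ubiquitin gene UBB at -0.60 and MPRIP at -0.60 on the FLCN side nearer the tip. FLCN was at -0.37 and the next gene, COPS3, at -0.46, while MED9, PEMT and RAI1 beyond it were at 0.10, 0.20 and 0.31. Farther on, SREBF1 and TOM1L2 were low again at -0.47 and -0.54, though inside the HET range. The WT 2 clone was low on both sides of the gene, at -0.62 and -0.67. HOM 1 was low again at the other end of the chromosome, where 154 genes from MRC2 to TBCD had a median of -0.40, against -0.27 in HET 4, -0.23 to 0.14 in the other HET clones and 0.16 in HOM 2. WT 1 was low there too, at -0.51 over 108 genes from FDXR to TBCD, against -0.40 in HOM 1. Over all 435 genes after FLCN the median of HOM 1 was -0.18, with 107 below the HET range (12.9% of all genes).

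If RNA followed copy number, 2 copies against 3 would give -0.58 on this scale. Copy number was not measured here, and the label of HOM 1 gives 3 copies at the edited site, so the low FLCN level of HOM 1 and the low level of its neighbours toward the tip cannot be told apart. Genes of this stretch entered the results above. TMEM256 lies there and is 1 of the 12 genes named on the lower side, and so do the autophagy gene GABARAP, at 81.2 CPM in HOM 1 against 157 to 238 CPM in HET and 164 CPM in HOM 2, and the ribosomal gene RPL26, at 621 and 775 CPM against 804 to 1108 CPM.

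HOM 1 had 9 stretches in all, holding 595 genes, and HOM 2 had 0, the only clone of 13 without one. The HET clones had 3 to 7 stretches and the WT clones 3 to 16, so stretches occurred with every genotype. Outside the stretches, HOM 1 was below the HET range for 11.8% and above it for 13.6% of 19182 tested genes, and 11 of its 23 calls lay there.

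**Figure D5:**
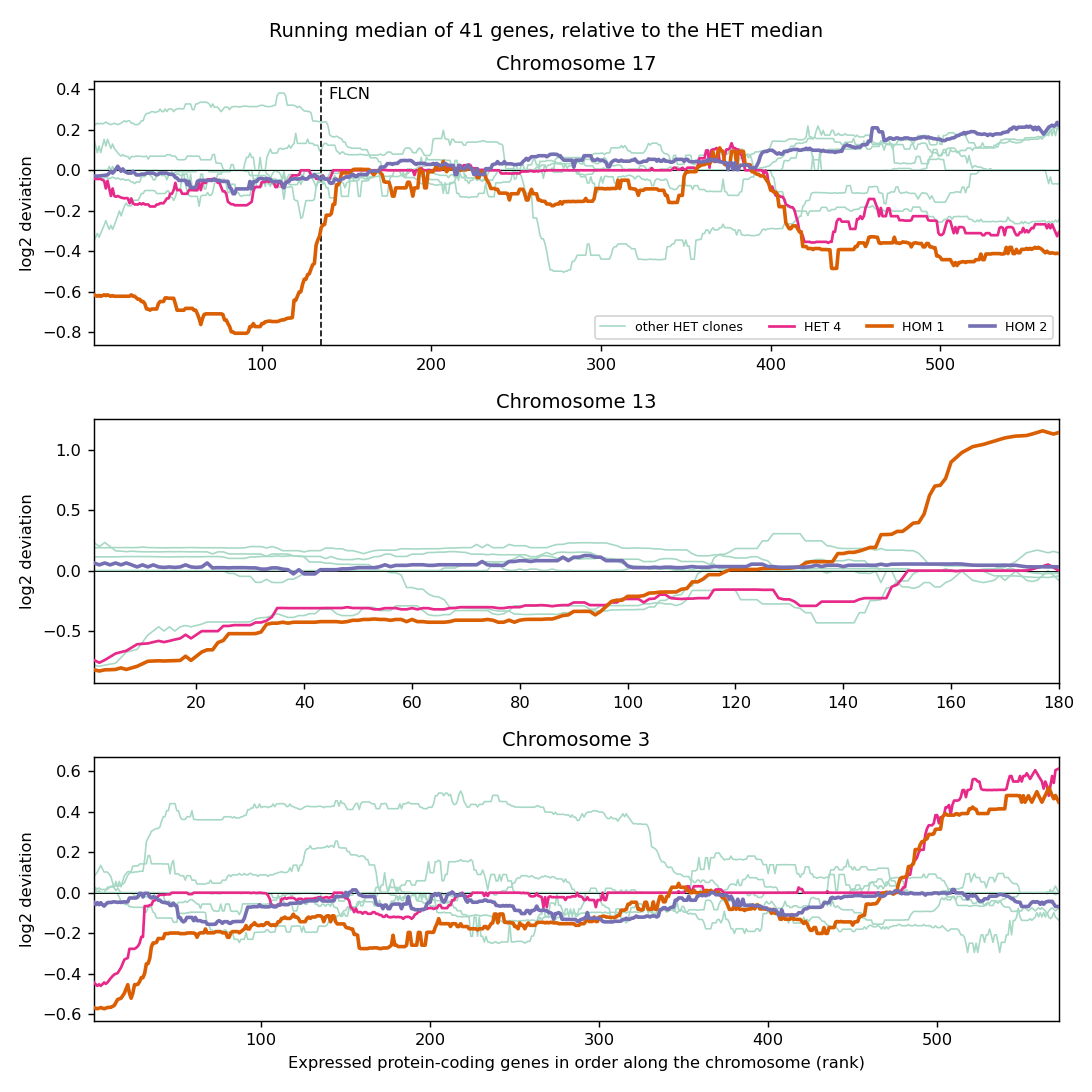
Running median over 41 expressed protein-coding genes of the log2 level relative to the median HET clone, along chromosomes 17, 13 and 3 by gene rank, for HOM 1, HOM 2, HET 4 and the other 6 HET clones. HOM 1 runs near -0.7 up to FLCN (dashed line), returns toward 0 and is low again at the end of chromosome 17 (-0.40 from MRC2 to TBCD), rises past 1 at the end of chromosome 13, and follows HET 4 at both ends of chromosome 3, while HOM 2 stays near 0.

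HOM 1 and the HET 4 clone (2_70) shared several levels that set them apart from the other 6 HET clones and HOM 2. On chromosome 3, 34 genes from TRNT1 to SYN2 were at -0.54 in HOM 1 and -0.40 in HET 4, against -0.00 to 0.06 in the other 6 HET clones and -0.05 in HOM 2. At the other end, 74 genes from TBL1XR1 to LMLN, which include EIF4A2, were at 0.43 in HOM 1 and 0.53 in HET 4, against -0.19 to 0.03 and -0.04. The short stretch of chromosome 17 up to FLCN was not shared, HET 4 being at -0.10. Other stretches were shared more widely. KCTD1 to RPRD1A on chromosome 18 was at 0.515 in HOM 1, 0.521 in HET 4 and up to 0.515 in the other HET clones. MPHOSPH8 to CDK8 on chromosome 13 was at -0.82 in HOM 1, -0.74 in HET 4, -0.73 in WT 1 and down to -0.78 in the other HET clones. By chi-square per gene, HOM 1 was nearer to HOM 2 (79.3), HET 7 (90.4) and WT 1 (90.6) than to HET 4 (93.8).

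Some single genes were also high in both HOM 1 and HET 4. SPARC, a secreted matrix protein, stood at 58.2 CPM in HOM 1 and 56.4 CPM in HET 4, against 0.193 to 1.52 CPM in the other 6 HET clones and 1.77 CPM in HOM 2. CDH11, a mesenchymal cadherin, stood at 13.0 and 11.8 CPM, against 0.0403 to 0.225 CPM in the other HET clones and 1.79 CPM in HOM 2. The GABA receptor subunit GABRB2 stood at 5.58 and 4.29 CPM against at most 0.141 CPM, and the potassium channel KCNK2 at 6.42 and 3.49 CPM against at most 0.256 CPM. CDH8, a neuronal cadherin, was higher in both HOM clones, at 10.3 and 2.51 CPM, and in HET 4 at 3.16 CPM, against at most 0.193 CPM in the other HET clones and 1.66 CPM in WT. These genes were picked after their values were seen, from those DESeq2 called or edgeR called without HET 4. Leaving out HET 4 favours genes in which it is like the HOM clones, so the likeness was partly set by the choice. The labels give no relation between HOM 1 and HET 4, and the part of any relation in these values was not tested.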

How the data were processed

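The authors deposited raw counts per gene, 1 column for each clone, made with Trimmomatic 0.36, STAR and featureCounts 1.5.3 on hg19, per the submitters' processing notes. Per the labels' protocols, libraries were stranded and poly(A)-selected. The sources used here do not give the annotation, the strand setting or the treatment of reads with several alignments, so counts of overlapping genes and near-identical copies are uncertain. Symbols, gene order and snoRNA sequences came from GENCODE 29 on GRCh38, matched by gene identifier.

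Genes were filtered with filterByExpr, scaled by TMM and fitted to all 13 libraries with robust quasi-likelihood in edgeR 4.0.16 (R 4.3.3), with Benjamini-Hochberg adjustment over 20320 genes and a threshold of 0.05, two-sided. A second fit gave each HOM clone its own group, with 9 residual degrees of freedom. CPM used TMM-scaled library sizes, and log2 CPM a prior count of 2. The p-values measure the spread between clones.

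The clones, the 26 gene lists and the rule for named genes were chosen with earlier results of these data known. Named were FLCN and its partners, EIF2AK4 with 5 neighbours on each side, the 12 genes of lowest p per direction with no overlap and a mean CPM of at least 1, the 5 per direction and HOM clone, and the 4 members of lowest p in each list. Chromosome values came from 9860 protein-coding genes at a mean log2 CPM of 3 or more, as deviations from the median of the HET clones. Alternatives were RLE factors, other filters, DESeq2 1.42.0, voom in limma 3.58.1, 1 surrogate variable (sva 3.50.0), HOM and HET clones alone, chromosome medians removed, and leaving out each clone in turn. The fit was tested on simulated data. No library was treated as a duplicate (lowest chi-square per gene between 2 libraries, 31.9).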

Additional observations from a re-analysis of the deposited data

Results flagged for a closer look

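Of 166 groups of values (83 named genes in the 7 HET clones and in the 4 WT clones), 10 had 1 clone set apart from the others of its group by Dixon's test, and chance gives about 1 in 20. HET 4 was the clone for 3 of them. It had CYR61, a matrix-associated YAP target, at 29.1 CPM against 8.76 to 17.4 CPM in the other 6, and EMILIN2 at 15.9 CPM against 3.57 to 8.80 CPM. It had MTATP6P1 at 103 CPM against 141 to 157 CPM, so this clone alone sets the low end of the HET range. PCK2 was at 89.3 CPM in HET 2 against 27.7 to 51.0 CPM in the other 6, and TFE3 at 61.3 CPM in HET 6 against 39.7 to 47.7 CPM.

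In WT, IL13RA2 was at 3.07 CPM in WT 4 against 0.153 to 0.637 CPM in the other 3, which puts this clone above HOM 2 (1.91 CPM). WT 4 was also apart for SNORD2, at 1.29 CPM against 1.64 to 1.68 CPM, and for TEX30, at 6.33 CPM against 7.33 to 7.49 CPM. WT 1 was apart for MT-ND3, at 211 CPM against 259 to 268 CPM, and for the mitochondrial transfer RNA MT-TE, at 1.99 CPM against 3.52 to 3.73 CPM.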

How the results depend on the processing

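Of 1812 values recomputed under an alternative, 1684 were rated the same. For a fold change this means the same direction and side of the threshold, which values far from the threshold could hardly leave. For a count of genes and for the chromosome 17 median it means a value close to the main one. No paired analysis was possible because the labels give no replicate numbers, and the numbers used here only name clones in accession order. HOM against HET had 0 genes past the threshold under RLE factors, without a filter, without robust estimation and with HOM and HET clones alone, but 1 with a mean CPM of at least 1, with voom, with 1 surrogate variable and with chromosome medians removed, that gene being EIF2AK4 each time, and 15 with DESeq2. Leaving out clones gave 0 to 35, with 35 without HOM 2, 6 without HET 4 and 1 without HET 6. For HOM 1 against HET the 23 genes became 39 without a filter, and 15 (without WT 2) to 63 (without HET 4) with a clone left out. HOM 2 against HET gave 0 to 1, the 1 without HET 3. HOM 1 against HOM 2 gave 1 gene without a filter and 0 to 2 with a clone left out. The 505 genes with no overlap became 270 at a mean CPM of at least 1, where fewer genes were tested, and 564 to 5734 with a clone left out, the last without HOM 2. The 95 snoRNA genes became 17 at that filter, which few of them pass, and 92 to 118 with a clone left out. The last was without HOM 2, where enough counts in HOM 1 alone let a gene be tested. These snoRNA alternatives, and those of the chromosome 17 median (-0.72 to -0.63 with a clone left out), were chosen after seeing the data. The difference in mean log2 CPM of FLCN, -0.24, ran from -0.56 to 0.094 with a clone left out. Fitted values turned sign without HOM 1 for FLCN (-0.63 to 0.027), CTGF (-0.58 to 2.25), CYR61 (-0.46 to 2.11), FOSB (-0.32 to 3.43), IER2 (-0.24 to 1.39) and TFEB (-0.50 to 0.075), and without HOM 2 for FNIP1 (-0.17 to 0.055), each range covering all clones left out in turn. FNIP2, near 0 throughout, was -0.010 with voom and -0.044 to 0.047 with a clone left out. GPNMB, at low counts, was 0.034 with 1 surrogate variable, 0.18 with chromosome medians removed, 0.24 with voom and -0.49 to 0.16 with a clone left out. With 2 HOM clones, 1 of them apart in RNA composition, the differences seen in single genes mostly did not pass after adjustment. A difference that did not pass is not thereby shown to be absent.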

Other observations

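More genes picked in the same way, from DESeq2 calls or edgeR calls without HET 4, were high in HOM 1 and HET 4. A choice made without HET 4 favours genes of this kind. The neuronal adhesion gene LRFN5 stood at 4.38 CPM in HOM 1 and 3.95 CPM in HET 4, against at most 0.0710 CPM in the other 6 HET clones and 1.64 CPM in HOM 2. The membrane traffic gene MAL2 stood at 24.8 and 13.8 CPM against 0.290 to 1.52 CPM, with 2.26 CPM in HOM 2. The inflammatory caspase CASP4 stood at 2.78 and 1.77 CPM against at most 0.149 CPM, and the GABA receptor subunit GABRA2 at 4.27 and 1.43 CPM against at most 0.0427 CPM. DESeq2 called each of these for HOM against HET. In edgeR their unadjusted p-values were 0.169, 0.0799, 0.0984 and 0.0523, with HET 4 among the HET clones.

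Other genes told the 2 HOM clones apart without passing in edgeR. VCAN, the matrix proteoglycan versican, stood at 50.7 CPM in HOM 1 and 203 CPM in HOM 2, on opposite sides of the HET range of 104 to 199 CPM (edgeR adjusted p = 0.329). SMTN, the smooth muscle gene smoothelin, stood at 14.5 and 39.3 CPM on either side of 24.8 to 30.2 CPM (edgeR adjusted p = 0.286), and ISYNA1, the inositol phosphate synthase, at 17.3 and 51.2 CPM on either side of 25.8 to 46.2 CPM (edgeR adjusted p = 0.638). The keratin gene KRT8 was above the HET range in HOM 2 alone, at 38.7 CPM against 3.40 to 28.6 CPM, with its partner KRT18 at 70.5 CPM against 36.7 to 64.7 CPM.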
